A study of Mus musculus with 8 samples.

Results

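The cytosolic ribosomal protein genes were taken as all genes whose symbol begins with Rpl, Rps or Rplp followed by a digit, plus Rpsa, in 10 deposited splicing tables of mouse male germ cells, with pseudogenes and the Rps6k kinases left out. This gave 56 of the 12583 gene symbols in the tables, of which 54 had events in spermatocytes, 48 in round spermatids and 46 in both. The members comprised 30 proteins of the large subunit, 22 of the small subunit and the paralogs Rpl7l1, Rpl22l1 and Rps27l. The last member, Rps19bp1, encodes a protein that binds Rps19 and is not itself part of the ribosome. The symbol rule used no measured value.

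The study deposited 8 polyA RNA-seq libraries: Larp7 conditional knock-out and wildtype round spermatids and spermatocytes, all of strain C57BL/6, with 2 biological replicates for each genotype and stage. Cells were sorted by flow cytometry on Hoechst staining from adult testes; the Cre driver is not named in the labels. Larp7 binds small nuclear RNAs, among them 7SK and U6. The tables' headers number 2 sample groups per stage without naming their genotype, so differences between groups are given as first minus second sample group and carry no genotype. Differences between stages are given as round spermatids minus spermatocytes over both groups.

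The ribosome is built of a small subunit, which reads the messenger RNA, and a large subunit, which joins the amino acids. Its proteins are made in matched amounts from genes whose messenger RNAs typically start with a run of pyrimidines, the 5′ TOP motif, through which nutrient signalling sets their translation. Several of these genes regulate themselves through splicing: transcripts of RPL3, RPL10A and RPL12 have been found, in human cells or in Caenorhabditis elegans, to be spliced into forms that carry early stop codons and are removed by nonsense-mediated decay. In mouse spermatogenesis the X chromosome is silenced during meiosis, and the autosomal retrogene Rpl10l takes over from the X-linked Rpl10.

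RefSeq promoter windows on GRCm38.p6 were found for 43 of the 56 members. A run of at least 6 bases that are all C or T, on the gene's strand and touching the stretch from 5 bases before to 5 bases after an annotated start, was present in 24 of these 43 members (55.8%) and in 24.0% of the 27025 gene symbols with a window. The windows below run from 20 bases before to 20 bases from the annotated start on, with such a run in capitals. They are shown for some of the members whose splicing or abundance is described below and were chosen with those values known. Of other members described below, Rpl9, Rps19, Rpl10, Rps3 and Rplp0 had no such run at any annotated start. Rpl31, Rps21 and Rplp2 had such a run.
Rpl10a, first annotated start, chr17:28328451-28328490, plus strand: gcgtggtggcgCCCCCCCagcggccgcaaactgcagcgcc
Rpl10a, second annotated start, chr17:28328545-28328584, plus strand: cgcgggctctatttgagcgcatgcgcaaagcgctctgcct
Rpl12, chr2:32961692-32961731, plus strand: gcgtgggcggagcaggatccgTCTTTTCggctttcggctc
Rpl7a, chr2:26910787-26910826, plus strand: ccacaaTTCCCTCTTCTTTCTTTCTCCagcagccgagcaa
Rps27, chr3:90213629-90213668, minus strand: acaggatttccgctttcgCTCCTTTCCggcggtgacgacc
Rps9, chr7:3704021-3704060, plus strand: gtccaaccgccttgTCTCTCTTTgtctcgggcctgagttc
Rpl12, Rpl7a, Rps27 and Rps9 have a mixed C and T run at the start, whereas the run of Rpl10a at its first start is of C alone and its second start has none.

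The tables gave, per alternative event and library, the reads of the form that includes the alternative part and of the form that lacks it. Event reads per library ranged from 49904607 to 93265932 in round spermatids and from 51786242 to 102000320 in spermatocytes, the second library of the first group being the deepest at both stages. As a stage check, all 6 round spermatid markers and all 4 elongating spermatid markers tested (9 listed each) were higher in round spermatids. Of 9 spermatocyte markers tested (10 listed), 7 were lower there. Over all genes, 28.5% were called higher and 49.8% lower in round spermatids. The spermatid markers Prm1, Prm2, Tnp1 and Tnp2 were not among those tested. Larp7 itself stood at 274 and 341 reads-per-million (CPM) in the first group against 1163 and 1259 in the second group of round spermatids, and at 183 and 219 against 1146 and 1077 in spermatocytes. Ribosomal protein genes have many processed pseudogenes, so reads of members may include or miss reads of near-identical copies. In sorted cells, fewer cells of a type and less RNA per cell cannot be told apart.

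Most measured events of ribosomal protein genes were close to fixed. Members were not matched to all events for read depth in the shares and medians that follow. Of the 148 member events with a mean of at least 10 reads in spermatocytes, 10 had a mean inclusion between 10% and 90%, or 6.76%, against 26.5% of all events. Cassette exons of members were included above 99% in 61 of 77 cases, or 79.2%, against 55.8% of all cassette exons. Retained introns of members had a median inclusion of 1.67% in round spermatids and 2.04% in spermatocytes, against medians over all introns of 9.91% in round spermatids and 15.9% in spermatocytes. Splicing of most ribosomal protein transcripts was therefore measured near one end of the scale, where few reads of the rarer form carry each value.

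The events at intermediate levels lay in few genes. In Rpl3, whose protein lines the peptidyl transferase centre, a 403-nt intron stretch (chr15:80081212-80081614) was retained at 39.9% and 41.9% in the first group against 61.2% and 44.0% in the second group of round spermatids, and at 36.7% and 53.0% against 60.3% and 59.6% in spermatocytes. In Rpl31, a 142-nt intron stretch (chr1:39368007-39368148) was retained at 44.0% and 48.0% against 28.7% and 35.4% in round spermatids, and at 37.1% and 35.8% against 27.1% and 24.9% in spermatocytes. Libraries of the first group were therefore below those of the second for Rpl3 and above them for Rpl31 at both stages, without overlap, but neither event passed the test in either stage. Rpl22l1, a paralog of Rpl22, used an acceptor that adds 67 nt at 11.3% and 11.3% against 9.75% and 8.94% in round spermatids, and at 9.57% and 10.9% against 6.78% and 5.15% in spermatocytes, which did not pass the test either.

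Mutually exclusive exon pairs need care in these genes. In spermatocytes 7 of the 8 pairs of members, and in round spermatids 5 of 6, contained at least 1 exon that the same stage's table of cassette exons also lists. Those cassette exons were included at 95.8% or more in every spermatocyte library and at 98.1% or more in every round spermatid library. Rpl23, Rps7, Rps15a, Rpl13a and Rpl27a are among these genes. A pair level there compares the read densities of exons that most transcripts contain together.

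In spermatocytes, 4 of the 148 member events tested differed between the sample groups at an adjusted p below 0.05 (limma on log2 odds of inclusion, Benjamini-Hochberg over all 61122 events), against 0.537% of all events. All 4 were lower in the first group, where the background was 0.398%, and 0 were higher (background 0.139%). They lay in Rpl10a and Rpl12, large subunit proteins of the L1 stalk and of the base of the P-stalk, and no small subunit gene had a called event. Both genes are on a list of 6 members with splicing-linked feedback in human or worm, of which Rpl3, Rps3, Rps13 and Rpl30 had no called event. That list was chosen with earlier results of these data known, so the overlap is not independent of them.

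Of the called events, 3 describe the same stretch of Rpl10a on chromosome 17 (mm10, plus strand). An 81-nt exon ends at 28329047 or, by a second donor site, 233 nt further on at 28329280, and the intron then runs to 28329373. Retention of the whole 326 nt (chr17:28329048-28329373) reached 8.97% and 10.96% in first-group spermatocytes, against 23.8% and 17.2% in second-group spermatocytes. The libraries of the first group lay below both libraries of the second (log2 odds difference -1.22, SE 0.195, limma adjusted p = 1.61e-06).

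Use of the farther donor (chr17:28329048-28329280) was 8.64% and 10.5% in the first group against 19.9% and 13.5% in the second group (-0.93, SE 0.202, limma adjusted p = 0.00222). Retention of the remaining 93 nt (chr17:28329281-28329373) was 57.5% and 59.0% in the first group against 75.9% and 78.5% in the second group (-1.25, SE 0.317, limma adjusted p = 0.0218). The groups did not overlap in either event. The 3 Rpl10a events share reads and count as 1 observation.

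Relative to library depth, the difference in Rpl10a lay in the spliced form in spermatocytes. Reads joining the near donor to the next exon were at 211 and 123 CPM in the first group against 68.0 and 67.2 CPM in the second group. Reads of the 326-nt stretch were at 66.3 and 48.2 CPM in the first group against 67.9 and 44.4 CPM in the second group. The retained reads thus overlapped between the groups of spermatocytes, whereas the spliced reads did not. In round spermatids, where reads were fewer, neither form overlapped. Spliced reads were at 15.1 and 7.37 CPM in the first group against 3.85 and 5.52 in the second group. Retained reads there were at 2.78 and 2.03 CPM against 3.18 and 4.16.

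In Rpl12, a 674-nt stretch on chromosome 2 (chr2:32963067-32963740, plus strand) was read as retained at 15.8% and 8.04% in the first group against 26.7% and 34.4% in the second group of spermatocytes, with no overlap (-1.58, SE 0.389, limma adjusted p = 0.0154). This stretch holds an 87-nt cassette exon (chr2:32963497-32963583), and the form counted as spliced is the junction that skips that exon. The skipping junction had 12.6 and 7.27 CPM in the first group against 5.68 and 2.35 CPM in the second group. Inclusion of the 87-nt exon was 94.6% and 96.4% in the first group against 97.4% and 98.4% in the second group. The exon was thus skipped somewhat more in each library of the first group, which did not pass the test (-0.95, SE 0.300, limma adjusted p = 0.148).

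The 4 calls depend on single libraries and on the model of the spread. None of the 4 remained when any 1 of the 4 libraries was left out, or with a trend on total reads, without weights or without a filter on reads. Other member events were called with the first (16) or second (41) first-group library left out, where the count over all events was 11381 and 11333 against 328 as reported, and 0 of all events were called without either library of the second group. The direction of the 4 events was the same in all 9 refits.

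**Figure D1:**
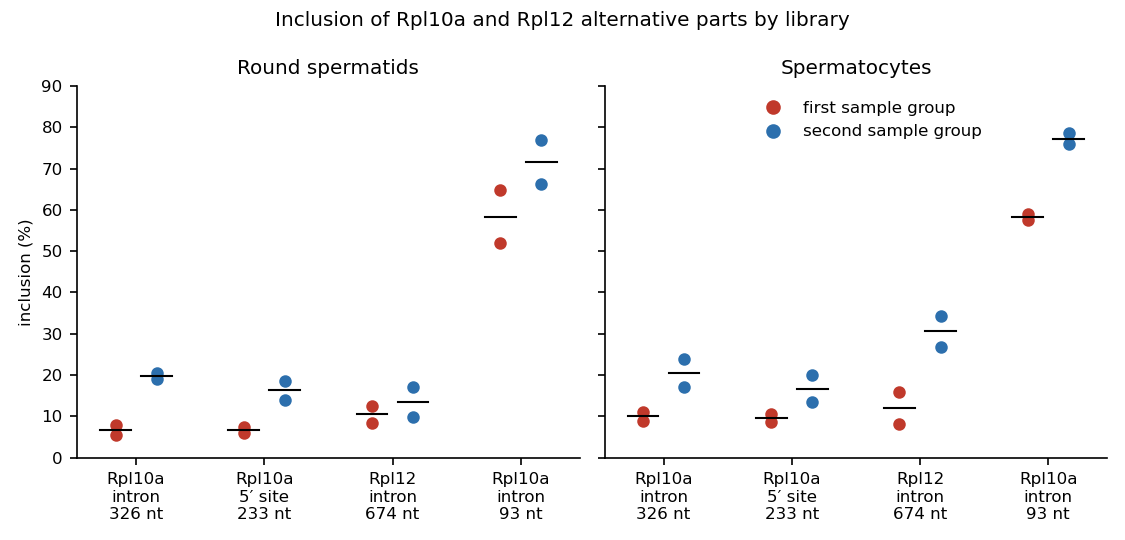
Inclusion in percent (y axis) of the 4 events called in spermatocytes, per library (points) with group means (bars), for round spermatids (left panel) and spermatocytes (right panel); the first sample group is left of the second. The first group lies lower in each Rpl10a event at both stages, while the Rpl12 libraries overlap in round spermatids.

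In the authors' deposited table of spermatocytes, 10 member events had a false discovery rate below 0.05, where 4.96% of all events did. With a level difference of at least 10 percentage points as well, the authors' deposited table kept 4 member events (2.5% of all events): the 326-nt and 93-nt introns of Rpl10a at -10.5 and -19.0 points, the Rpl12 intron at -18.6 points and the Rpl31 intron at 10.4 points. These are the same measurements under the authors' own test and add no independent sample.

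In round spermatids, 0 of 107 member events passed limma's test (0.131% of all events did, 0.0437% higher and 0.0874% lower), 8 (7.48%) had an unadjusted p below 0.05, as did 5.88% of all events, and the authors' deposited table has 3 member events below a false discovery rate of 0.05 (2.59% of all events), 1 of them with a level difference of at least 10 percentage points (1.47% of all events). Retention of the 326-nt Rpl10a stretch was 5.46% and 7.96% in the first group against 20.6% and 19.1% in the second group, without overlap and with the lowest p of the members (-1.74, SE 0.442, limma adjusted p = 0.0585). The farther Rpl10a donor was used at 6.03% and 7.47% against 18.6% and 13.9%. With the first or second first-group library left out, 12 and 6 member events were called, where the count over all events was 6589 and 3755 against 63 as reported, and without either of the second group 0 of all events were called. Rpl10a thus stood in the same order at both stages, from a mean of 141 reads per library in round spermatids against 2310 in spermatocytes.

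Rpl12 retention did not separate in round spermatids, at 12.6% and 8.30% in the first group against 9.74% and 17.1% in the second group. Whether a group difference itself differs between the stages was not tested, because the headers do not tie a numbered group in one stage's tables to the same number in the other's. Rps24, known for short alternative 3′ exons, had its only event tested at both stages, a 210-nt exon, included at 100% or just below in all 8 libraries.

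Between stages, 17 of 93 member events in 16 genes differed (limma, 8 libraries, adjusted over 34455 events), or 18.3%, against 12.5% of all events. Of these, 6 were higher in round spermatids (background 6.5%) and 11 lower (background 5.96%). Introns accounted for 6 of the lower events and 1 of the higher. With 7 of 33 introns called, or 21.2%, members were below the share over all introns, 31.6%. The count was 6 without the second first-group library of round spermatids, 11 without their first second-group library and 9 without weights; over all events these refits called 2399, 2883 and 2796, against 4294 as reported.

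The change of largest size was in Rpl9, a large subunit protein near the P-stalk base. Its 133-nt exon (chr5:65389478-65389610, minus strand), which is not a multiple of 3 nt, was included at 89.2%, 75.6%, 87.3% and 76.8% in round spermatids and at 96.9%, 96.2%, 98.5% and 97.0% in spermatocytes. Every round spermatid library was below every spermatocyte library (-2.98, SE 0.241, limma adjusted p = 5.74e-32). Skipping of that exon was therefore several times more frequent in round spermatids, from 48 to 125 skipping reads per library there and 20 to 74 in spermatocytes.

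Rarely used exons of 3 small subunit genes were higher in round spermatids. They were 7.89% of the 38 member cassette exons tested, near the 7.21% called higher over all cassette exons. A 174-nt exon of Rps9 was included at 1.98%, 2.26%, 1.36% and 2.16% in round spermatids and at 0.724%, 0.425%, 0.408% and 0.402% in spermatocytes (2.0, SE 0.307). A 113-nt exon of Rps27 was included at 1.58%, 2.68%, 1.74% and 1.67% in round spermatids and at 0.524%, 0.702%, 0.936% and 0.507% in spermatocytes (1.49, SE 0.249). Stages did not overlap in either gene, and both exons stayed minor forms.

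An 81-nt exon of Rps19, the gene most often mutated in human Diamond-Blackfan anaemia, was included at 1.68%, 4.26%, 3.39% and 2.09% in round spermatids and at 0.402%, 0.747%, 0.896% and 0.634% in spermatocytes (2.10, SE 0.390). Here too each round spermatid library was above each spermatocyte library. The calls in Rpl9, Rps9, Rps27 and Rps19, and that in the Rpl23 pair, held in each of the 13 refits run for them.

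Introns of large subunit genes made up the called introns, and most were retained less in round spermatids, as were most called introns over all genes. Of member introns 18.2% were called lower and 3.03% higher, against 27.8% and 3.76% of all introns. The 156-nt intron of Rpl23a was retained at 3.94%, 0.865%, 3.71% and 4.41% in round spermatids and at 5.61%, 12.7%, 9.54% and 13.8% in spermatocytes (-1.75, SE 0.354). A 583-nt intron of Rpl3 was retained at 2.17%, 1.78%, 2.86% and 2.44% in round spermatids and at 3.46%, 3.13%, 4.36% and 4.28% in spermatocytes (-0.74, SE 0.210). In both genes the stages did not overlap. Rpl13, Rpl7a and Rpl34 had called introns of the same direction at levels below 2% in every library, with log2 odds differences between -1.15 and -0.91.

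The intron of Rpl7 went the other way, at 1.33%, 1.88%, 1.64% and 1.82% in round spermatids and 0.895%, 0.928%, 1.02% and 1.15% in spermatocytes (0.77, SE 0.219). Rpl3 also used an acceptor that adds 180 nt less often in round spermatids (-0.67, SE 0.232), an event inside the 583-nt intron that shares its spliced reads. The farther donor of Rpl12 (-1.18, SE 0.351) and the 79-nt exon of Rps27l (-1.41, SE 0.444) were lower in round spermatids with stages that overlapped. The remaining calls were exclusive pairs of Rpl23 and Rpl13a, higher, and of Rps15a, lower, to which the caution on such pairs applies. Retention of the 326-nt Rpl10a stretch did not pass the test between stages (-0.35, SE 0.371).

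**Figure D2:**
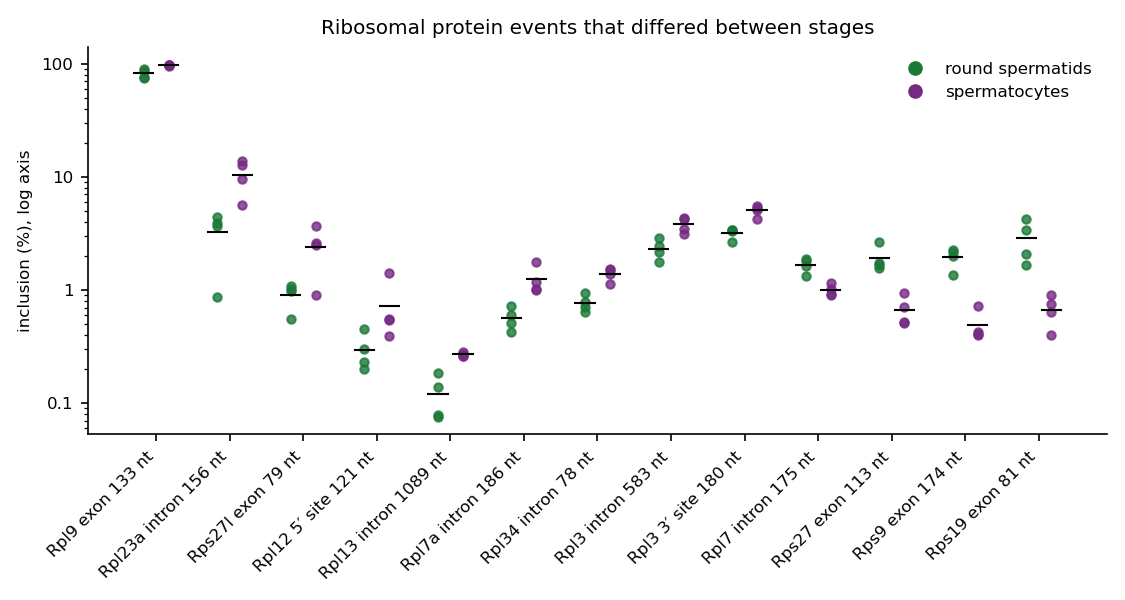
Inclusion in percent (log axis) per library of 13 called member events other than exclusive pairs, with means as bars; round spermatids are left of spermatocytes for each event. Rpl9 lies near the top of the scale and lower in round spermatids, and the rare exons of Rps27, Rps9 and Rps19 lie higher in round spermatids.

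Abundance was read from the reads of each gene's most covered event, as CPM, here relative to the sum of such reads in the library. By this measure ribosomal protein genes held 1.25% and 1.01% of reads in the first group against 1.01% and 1.14% in the second group of round spermatids. They held 3.12% and 2.65% in the first group against 2.27% and 2.03% in the second group of spermatocytes. The share was thus higher in every spermatocyte library than in any round spermatid library, and within spermatocytes higher in both libraries of the first group. Between stages these shares are not like for like. Each was read on its own stage's events, with 54 members in spermatocytes and 48 in round spermatids, and a gene's event can differ. Rpl23a was read on an exon at 459 to 680 CPM in spermatocytes and on an intron at 11.6 to 18.7 CPM in round spermatids. As CPM per kilobase of form length, the most abundant members were Rpl13, Rplp0 and Rps24 at both stages, Rplp0 being the core protein of the P-stalk that recruits translation factors, and the least abundant was Rpl10.

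Between the sample groups of spermatocytes, 20 of 54 members were higher in the first group and 0 lower (limma on log2 CPM, adjusted over 9861 genes), against 5.76% of all genes called, 4.9% higher and 0.862% lower. No member was lower at an unadjusted p below 0.05. The median log2 difference of members was 0.54, against 0.16 over all genes, and 53 of 54 members had a positive difference. In 47 members the first group lay above the second without overlap, which held for 40.5% of all genes, and in 0 below it, which held for 17% of all genes. Both subunits were represented, with 10 of 30 large subunit genes and 9 of 21 small subunit genes called higher.

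Rpl10, the X-linked large subunit protein that completes the subunit late in its assembly, had the largest difference. It stood at 70.3 and 16.04 CPM in the first group against 3.13 and 6.98 in the second group (log2 difference 2.84, SE 0.543, limma adjusted p = 0.0188). The first library of the first group stood apart from the other 3. Rpl10a stood at 329 and 231 in the first group against 143 and 124 in the second group (1.05, SE 0.171, limma adjusted p = 0.00762). Its abundance was higher in the group in which its 326-nt stretch was retained less.

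Among small subunit proteins, Rps19 stood at 248 and 134 CPM in the first group against 100.02 and 64.0 in the second group (1.19, SE 0.258). Rps21 stood at 150 and 86.0 against 56.5 and 54.8 (1.03, SE 0.220), and Rps16 at 359 and 210 against 153 and 138 (0.91, SE 0.204). In each the first library of the first group was the highest. Rps27a, made as a fusion with ubiquitin, Rps27 and Rps12 had log2 differences of 0.86, 0.80 and 0.73, and Rpl31 in the large subunit had 0.72. The paralog Rps27l, a p53 target in human cells, was higher as well, at 126 and 77.8 against 54.7 and 41.0 CPM (1.06, SE 0.223).

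Several members with known roles did not pass the test. The P-stalk proteins Rplp0 and Rplp2 had log2 differences of 0.24 and 0.68, and Rpsa, which also serves as a laminin receptor, had 0.40. Rps24 had 0.45, Rpl3 0.57, Rpl12 0.38, Rps3 0.45, Rps13 0.58 and the paralog Rpl22l1 0.88. Rpl13 was the only member with a negative difference, -0.03. Rplp1, Rpl39, Rps4x, Rpl36a and the paralogs Rpl3l, Rpl10l, Rpl26l, Rpl36al, Rpl39l and Rps4l were not analysed here.

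Related genes were less uniform. Of ribosomal proteins whose symbols fall outside the rule, Rack1 (0.70) was higher and Fau was not called. Mitochondrial ribosomal protein genes were higher in 6 of 59 cases, with a median of 0.28, the largest being Mrps24 at 1.54. Ribosome biogenesis factors were higher in 9 of 73 cases, with a median of 0.27, among them the nucleolar proteins Noc2l at 3.27, Ncl at 1.85 and Fbl at 0.98 and the rRNA transcription factor Ubtf at 2.12. Of other mRNAs with a 5′ TOP motif 2 of 17 were higher (Hnrnpa1 and Eif4b), and of translation initiation factors 2 of 37 were higher and 1 lower.

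Markers of spermatogonia and Sertoli cells, and some of spermatocytes, moved with this difference. Of the 8 spermatogonial markers tested (10 listed), 6 were higher in the first group, and their summed level was 493 and 185 CPM in the first group against 69.3 and 66.4 in the second group. Dazl alone stood at 260 and 124 against 50.2 and 41.4, Stra8 at 36.5 and 5.81 against 1.56 and 2.11, and no tested marker was at 0 throughout. Of 4 Sertoli cell markers tested (8 listed), 3 were higher, with sums of 205 and 135 against 40.9 and 69.2. None of 3 Leydig, peritubular and immune cell markers tested (9 listed) was called (65.9 and 39.8 against 34.5 and 44.1). Of 9 spermatocyte markers, 4 were higher, with a log2 difference of 3.67 in Dmc1 the largest, and 3 lay lower without overlap. No round or elongating spermatid marker was called (6 and 4 tested, 9 listed each). Of these, 2 and 0 had a positive difference, and 3 of each lay lower without overlap, as did 17% of all genes. Elongating spermatid markers summed to 1737 and 2092 CPM in the first group against 2740 and 2455 in the second group. Round spermatid markers summed to 553 and 602 against 608 and 662. The part of cell composition in the difference of the ribosomal protein genes was not tested.

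The first library of the first group was the highest in both the markers and Rpl10. Without it, 0 of 54 members were called (limma), 53 were positive, the median was 0.36 and Rpl10 had a log2 difference of 1.77 (limma adjusted p = 0.0657); over all genes that refit called 38 higher and 11 lower. Without the second library of that group 37 members were called, where 12.7% of all genes were called higher and 1.85% lower. Scaled by median ratios, which moved the median of all genes by more than 0.1 to 0.00, 9 members were called higher and 0 lower with a median of 0.37, and the calls over all genes were split 436 higher and 259 lower, against 483 and 85 as reported.

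**Figure D3:**
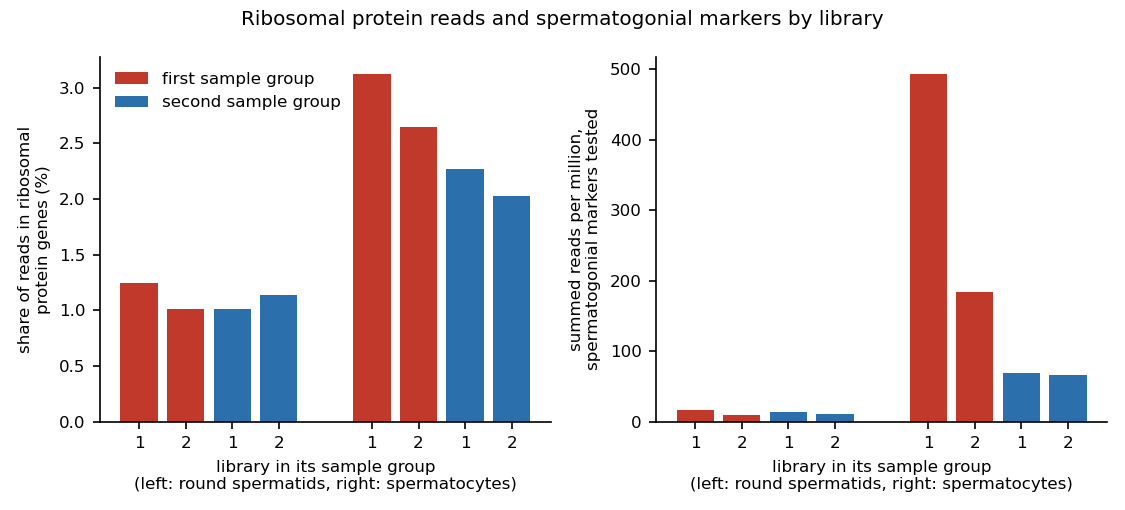
Share of reads in ribosomal protein genes in percent (left) and summed CPM of the spermatogonial markers tested at each stage (right: 3 in round spermatids, 8 in spermatocytes), 1 bar per library; the first sample group is left of the second within each stage. In spermatocytes both measures are highest in the first library of the first group. Shares are read on each stage's own members and events, so their heights are not like for like between stages.

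In round spermatids, 0 of 48 members differed in abundance between the sample groups (limma, adjusted over 9315 genes), against 0.0859% of all genes (0.0751% higher and 0.0107% lower), and 0 had an unadjusted p below 0.05. The same count was 0 with median-ratio scaling. The median log2 difference was 0.10 against 0.08 over all genes. In 3 members the first group lay above the second without overlap and in 2 below, against 25.3% and 17.6% of all genes. Rpl10a had the largest value, at 17.9 and 9.41 CPM in the first group against 7.03 and 9.69 in the second group (0.65, SE 0.353), and its groups overlapped. Rpl10 stood at 3.08 and 2.39 against 3.01 and 1.70. Without the second library of the first group 8 members were called, all higher with a median of 0.36, where 5.35% of all genes were called higher and 6.30% lower. Without the first library of that group 0 were called, the median turned to -0.13 and 12 of 48 members were positive, against 36 as reported. Spermatogonial markers were near the bottom of the scale here, with sums of 16.7 and 10.02 against 14.2 and 11.3 CPM over 3 markers.

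**Figure D4:**
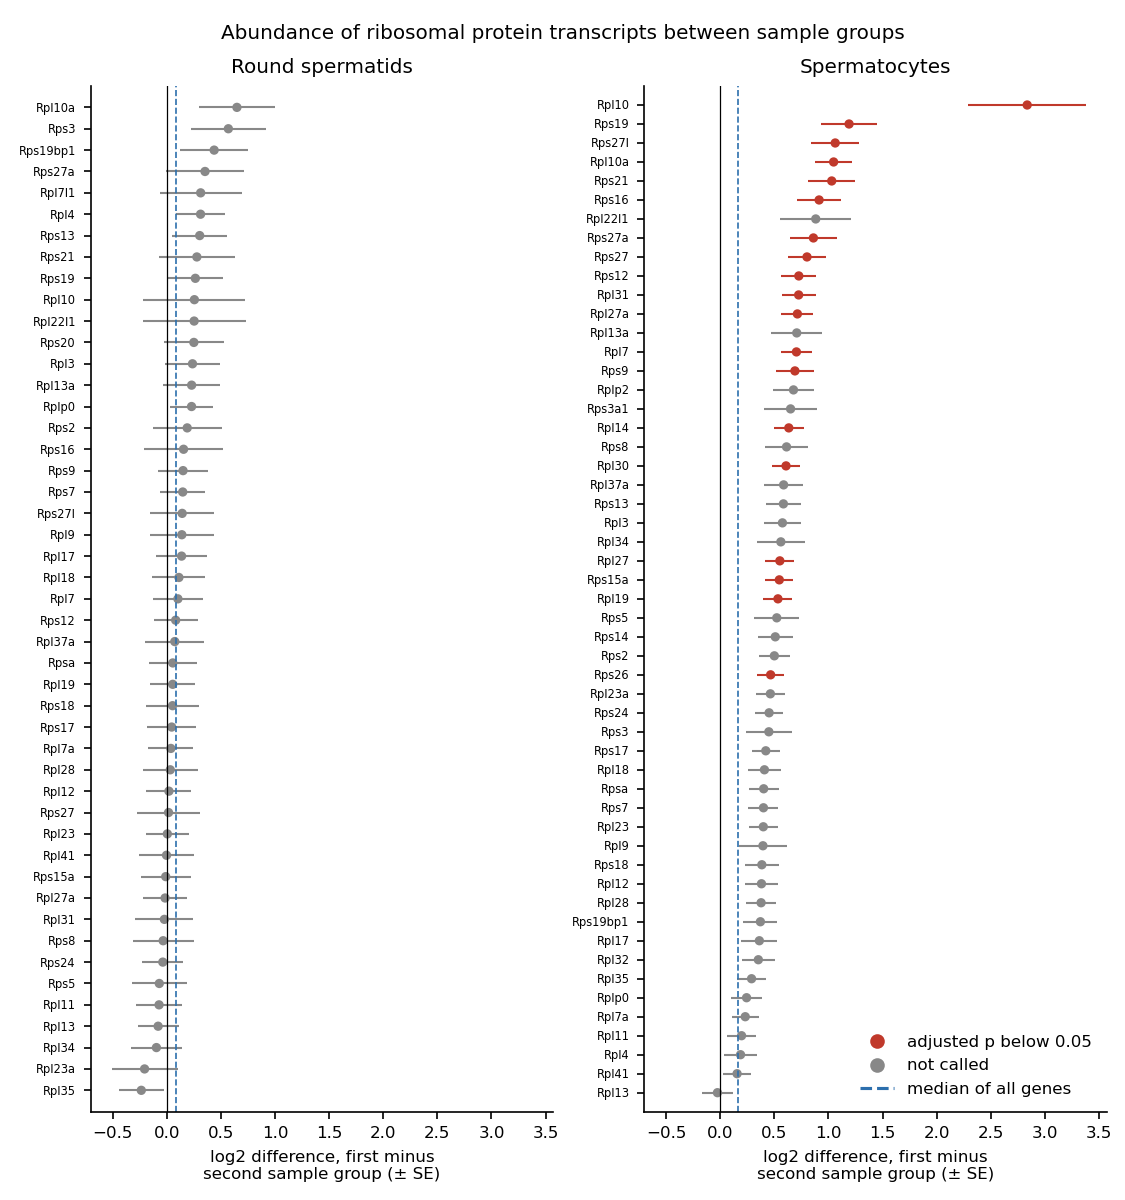
Log2 difference in abundance, first minus second sample group, of the members named here (points, with standard errors as lines) in round spermatids (left) and spermatocytes (right); the dashed line is the median of all genes tested. In spermatocytes 19 of the 53 members drawn are called and nearly all lie right of 0, and in round spermatids none is called.

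Between stages, all 46 members were lower in round spermatids (limma, 8 libraries, adjusted over 8512 genes), against 78.3% of all genes called, 49.8% lower and 28.5% higher. Levels were read here on each gene's most covered event present in both stages' tables, and CPM is relative to the sum over those genes, so values can differ from those within a stage. The median log2 difference was -0.94, against -0.45 over all genes. In 33 members the stages did not overlap, which held in this direction for 43.2% of all genes (25.2% in the other). Spermatogonial markers moved the same way, 2 of the 3 tested being lower, with sums of 11.5 to 18.7 CPM in round spermatids and 39.7 to 275 CPM in spermatocytes, and 1 of 3 Sertoli cell markers was lower, with sums of 44.5 to 93.4 against 43.4 to 214 CPM. Their part in the result was not tested. Large subunit genes had a median of -0.90 and small subunit genes one of -1.03.

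Rpl10a was lower by far more than the median member. It stood at 20.1, 10.8, 8.08 and 11.1 CPM in round spermatids and at 343, 209, 165 and 136 in spermatocytes, all read on the same 326-nt event. The stages were far apart, at a 16.9-fold lower level in round spermatids (log2 difference -4.08, SE 0.220, limma adjusted p = 3.51e-09). Rps27a stood at 97.8, 36.1, 51.0 and 43.3 in round spermatids and at 661, 387, 323 and 233 in spermatocytes (-2.82, SE 0.266).

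Rps3, a small subunit protein at the mRNA entry channel, stood at 41.4, 19.0, 21.7 and 16.7 in round spermatids and at 219, 121, 129 and 109 in spermatocytes (-2.59, SE 0.244). In Rps27a and Rps3 no round spermatid library reached a spermatocyte library. Rps19bp1, the member that is no ribosomal protein, had -3.11, and Rpl9 had -1.70, Rpl4 -1.52, Rpl7a -1.51, Rps16 -1.40, Rps21 -1.40 and Rpl17 -1.32. The calls of these 10 members held in each of the 13 refits.

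The smallest differences were in Rpl18 and Rpl35, at -0.45 each, and in Rpl28, at -0.48. Rps24 had -0.60, Rpl12 -0.80, Rps13 -0.85, Rpsa -0.89, Rplp0 -0.91, Rpl3 -1.0 and the paralogs Rpl22l1 -0.92 and Rps27l -1.13. Rpl10 stood at 3.46, 2.75, 3.46 and 1.95 CPM in round spermatids and at 33.3, 6.27, 2.59 and 2.57 in spermatocytes (-1.10, SE 0.445, limma adjusted p = 0.0375). The second group's spermatocytes thus lay within the range of round spermatids for Rpl10.

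Related genes differed in direction between the stages. Rack1, a small subunit protein outside the rule, was lower at -3.01 and Fau at -0.42. Mitochondrial ribosomal protein genes were lower in 36 and higher in 2 of 46 cases (median -1.20), and ribosome biogenesis factors lower in 43 and higher in 4 of 62 cases (median -1.07). Other 5′ TOP mRNAs were lower in 6 and higher in 2 of 16 cases (median -0.07), with the elongation factors Eef1d at 3.48 and Eef1b2 at -1.44. Translation initiation factors were lower in 15 and higher in 8 of 33 cases (median -0.16), with the translational repressor Eif4ebp1 at 4.02 and Paip1, a partner of poly(A)-binding protein, at -3.71.

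Scaled by median ratios, which moved the median of all genes to -0.02, 33 of 46 members were lower and 0 higher, with a median of -0.51. The calls over all genes were then split 3259 higher and 3161 lower, against 2426 and 4236 as reported. These values are shares of each stage's measured reads and hold no absolute amount per cell.

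**Figure D5:**
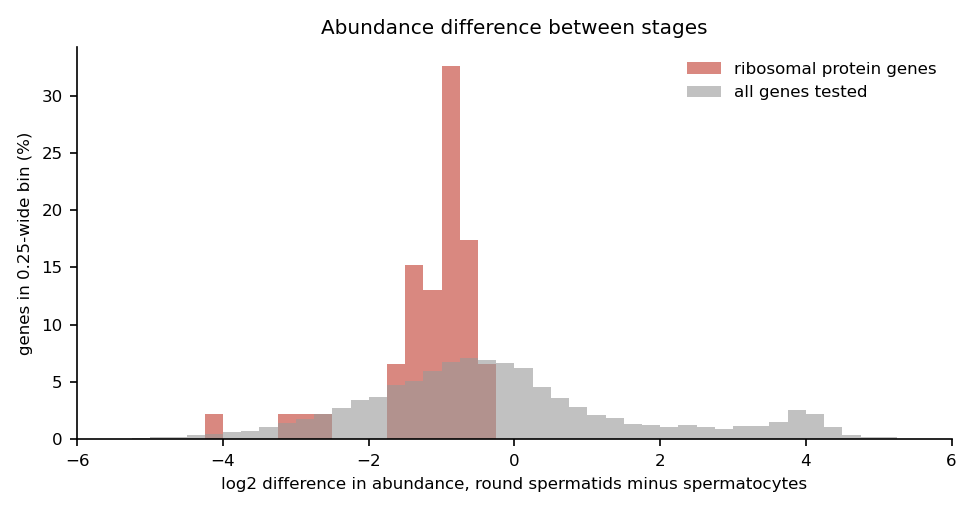
Distribution of the log2 difference in abundance, round spermatids minus spermatocytes, for the 46 members and for all 8512 genes tested, as the percentage of genes (y axis) in bins 0.25 wide. The members lie left of 0, most of them between -1.5 and -0.5, with Rpl10a farthest left.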

How the data were processed

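The authors deposited 5 tables of alternative splicing per stage, 1 per event type, from reads aligned to mm10, with STAR among the tools, per the submitters' processing notes; no version is stated there. Per the file headers, an event's row gives read counts of its included and skipped form, the 2 libraries of a sample group joined in 1 cell, with form lengths, inclusion levels, and the authors' p-value and false discovery rate.

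Inclusion was recomputed as reads per form length. Splicing was fitted with limma 3.58.1 (R 4.3.3) on log2 odds of inclusion weighted by counting variance, abundance with limma on log2 CPM (relative to the library's sum of those reads) of each gene's most covered event. An average of 0.5 reads was added, and events and genes needed a mean of 10 reads. Joined cells and overlapping events are not a gene count table, so no count model was run. Calls are adjusted p below 0.05 (Benjamini-Hochberg over all features). Both fits were run on simulated data with an equal spread in every library. That run does not test how the calls respond to a library that varies more than the others. The members and lists were chosen with earlier results of these data known. Some items that fall under the naming rule are counted but not reported here by name or drawn. Otherwise the text names all members with called events, the 10 largest called abundance differences per direction, a fixed set of members and paralogs, and up to 6 called genes of other lists. Read depth limits the precision, and errors cover the spread between libraries only.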

Additional observations from a re-analysis of the deposited data

How the results depend on the processing

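No paired analysis was possible because the columns carry no replicate numbers. None of the 4 splicing and 10 abundance calls followed in spermatocytes, or of the 17 and 10 between stages, changed sign in an alternative run; the members' median abundance difference in round spermatids, with no call, was 0.10 as reported and -0.13 when the first-group library 1 was left out. Splicing in spermatocytes gave 4 member calls as reported, 0 with a trend on total reads, 0 without weights, 0 without a filter on reads, and 0 to 41 with 1 library left out (16 and 41 without either library of the first group, 0 without either of the second). Over all events the counts in those refits were 0 without either second-group library and 11381 and 11333 without either first-group library, against 328 as reported. Splicing in round spermatids gave 0 member calls as reported, 1 with an average of 2 reads added, 1 at a mean of at least 50 reads, 1 under the authors' deposited thresholds, and 0 to 12 with 1 library left out. Splicing between stages gave 17 as reported, 9 without weights, and 6 to 19 with 1 library left out (6 without the second round spermatid library of the first group, 11 without the first of the second group). Abundance in spermatocytes gave 20 as reported, 9 with median-ratio scaling, and 0 to 37 with 1 library left out. Abundance in round spermatids gave 0 to 8 with 1 library left out, and abundance between stages 42 to 45. With 1 library left out, 46.4% to 50.5% of all genes were called lower between stages, against 49.8% as reported. In round spermatids, 1.47% of all events passed the authors' deposited thresholds. Counts over all events are not given here for that stage's splicing refits with 2 reads added or at a mean of at least 50 reads. The member count in those refits therefore cannot be set against a background. The cause of these changes in count was not tested. Of the named values, 0 of 4 splicing calls and 0 of 10 abundance calls in spermatocytes, and 5 of 17 splicing calls and 10 of 10 abundance calls between stages, held in every refit. With a library left out, the lone library of its group is assumed to vary like the others.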
